A study of Homo sapiens with 6 samples.

Results

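The thioredoxin and peroxiredoxin genes were taken from the deposited RNA-seq table of KHM-5M cells by their gene symbols. The 10 genes are TXN and TXN2, which encode the cytosolic and the mitochondrial thioredoxin, TXNIP, which encodes the thioredoxin-interacting protein, SRXN1, which encodes sulfiredoxin, and PRDX1 to PRDX6, which encode the peroxiredoxins. They were found among the 17687 genes of the table, and all 10 were among the 14005 genes that passed the filter on low counts and were tested.

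KHM-5M is a cell line from an anaplastic thyroid cancer, and in this study sodium selenite (SS) was applied to ask how it acts on thyroid cancer cells and whether an antioxidant changes its effect. All cells were grown in RPMI-1640 medium with fetal bovine serum. The control group received PBS, the SS group received sodium selenite, and the SS+NAC group received sodium selenite together with N-acetylcysteine (NAC), a thiol that supplies cysteine and scavenges oxidants. Each group had 2 libraries of polyadenylated RNA, and there was no group with NAC alone. The dose and the time of exposure of the sequenced cells were not given in the sample labels. The study describes its libraries as biological replicates, and the p-values below measure the spread between these libraries.

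Thioredoxins are small proteins that reduce disulfides in other proteins and are themselves reduced by thioredoxin reductase with electrons from NADPH, while TXNIP binds reduced thioredoxin and blocks it. Peroxiredoxins reduce peroxides with a reactive cysteine, most of them with thioredoxin as the electron donor, and sulfiredoxin repairs those that have been oxidised too far by peroxide. Selenite reacts with thiols such as glutathione, and thioredoxin reductase can reduce it.

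The libraries held 17645545 and 22016655 expected counts in control, 23493415 and 23810056 in SS, and 23682740 and 22617180 in SS+NAC. Expected counts are the reads per gene estimated by RSEM, and differences between groups are given on their scale after TMM normalisation, as CPM. Levels were compared between genes only as TPM, which are corrected for transcript length. A gene was called higher or lower at an edgeR adjusted p of at most 0.05 in a fit of all 6 libraries. The 3 comparisons share libraries, since SS enters 2 of them and control enters 2, so their values are given side by side and are not separate evidence. As a check of the label, the thyroid factor PAX8 stood at 253 to 278 CPM in the 6 libraries, whereas TG (0.952 to 1.39 CPM) and NKX2-1 (at most 0.228 CPM) were close to 0, and the keratin KRT8 and vimentin (VIM) were at 831 CPM or more in each library. These markers differed between SS and SS+NAC in both directions, with KRT7, KRT8, KRT18, VIM and HHEX called higher in SS and FN1 (log2 fold change -0.70), CDH2 (-0.36) and COL1A1 (-0.34) called lower. With the length offset described below, those called were KRT7 (0.44), KRT8 (0.44), KRT18 (0.41), VIM (0.30) and PAX8 (0.29), all higher in SS. Against control, KRT7 (0.43), KRT8 (0.48), KRT18 (0.44), VIM (0.40) and HHEX (0.29) were called higher in SS and CDH2 (-0.31) lower. None of these was called against control with the length offset. FN1 was called higher in SS+NAC than in control with the length offset only (0.48, edgeR adjusted p = 0.0290). Of 8 thyroid markers 6 were in the table, and 5 of them, 5 of 6 epithelial and 5 of 6 mesenchymal markers had a mean of at least 1 CPM. Other epithelial markers were low, with CDH1 at 0.362 to 0.697 CPM, KRT19 at 0.665 to 1.87 CPM and EPCAM at 3.88 to 5.22 CPM. The mesenchymal markers DCN (at most 0.218 CPM) and LUM (5.71 to 8.81 CPM) were also low. Of 3 endothelial markers 0 had a mean of at least 1 CPM.

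Most of these genes were among the abundant transcripts of the cells. In control, PRDX1 had the highest level of the 10 (835 and 811 TPM), followed by TXN (526 and 541 TPM) and PRDX5 (503 and 438 TPM). PRDX1 exceeded 99.1% of all genes in mean control TPM, and SRXN1 (99.4 and 100.3 TPM) exceeded 90.7%. PRDX4, the peroxiredoxin of the secretory pathway, was the least abundant peroxiredoxin (77.7 and 72.7 TPM), and TXNIP was the lowest of the 10 with 14.3 and 13.9 TPM. The control libraries did not overlap between neighbours in this order, from PRDX1 to TXNIP. The order of the group means was the same in SS, and in SS+NAC SRXN1 moved from position 8 to position 6, above PRDX3 and TXN2. The 6 peroxiredoxins together summed to 2204 and 2106 TPM in control, 2536 and 2461 TPM in SS, and 2175 and 2275 TPM in SS+NAC, of which PRDX1 made up 37.9% to 39.0% in each library. TPM does not remove the trend with length between groups that is described below. With the length offset none of the 6 was called between SS and control (log2 fold changes -0.12 for PRDX4 to 0.20 for PRDX2).

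**Figure D1:**
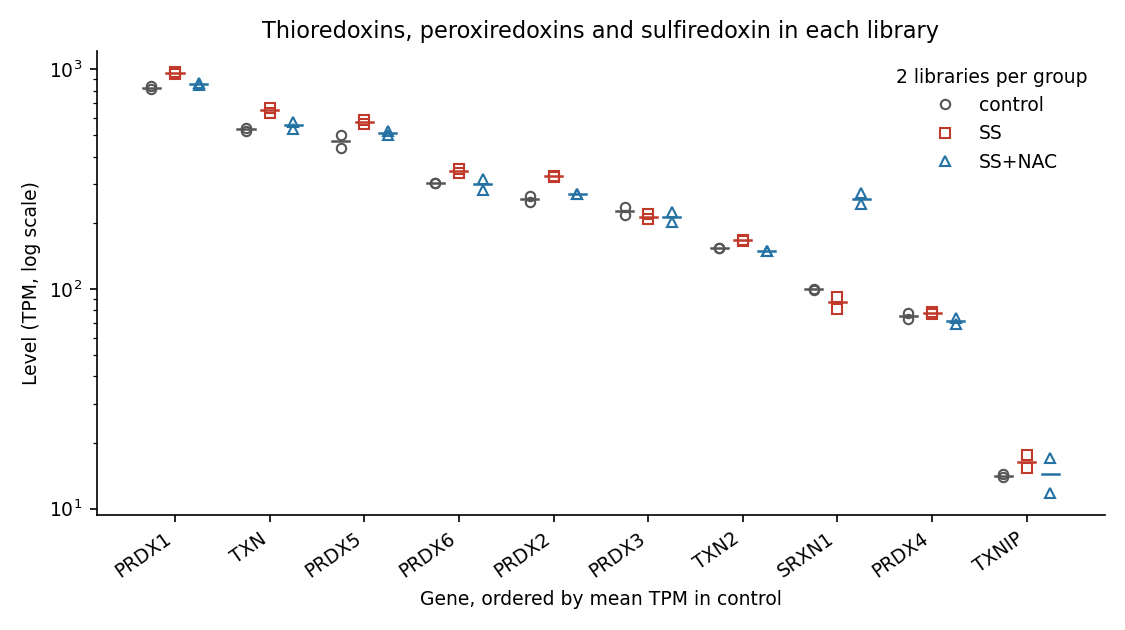
Level of each of the 10 genes in TPM on a log axis in the 6 libraries, with open symbols for single libraries (2 per group) and short lines for group means. SRXN1 stands at 244 and 272 TPM in SS+NAC and at 100.3 TPM or less in the other 4 libraries, while the other genes lie close together across the groups.

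SRXN1 had 136 and 140 CPM in control, 147 and 143 CPM in SS, and 334 and 349 CPM in SS+NAC. Both SS+NAC libraries were far above the other 4, the lower of them 2.39 times the higher control library, whereas control and SS lay within a narrow range. SRXN1 was 2.48-fold higher in SS+NAC than in control (95% interval 2.22 to 2.77, log2 fold change 1.31 ± 0.0726 SE, edgeR adjusted p = 3.30e-06), which placed it at rank 97 from the top of the 14005 tested genes. Between SS and SS+NAC its log2 fold change was -1.24 ± 0.0723 (edgeR adjusted p = 1.23e-05), so it was 2.36-fold higher with NAC. SRXN1 was not called in SS against control, with a log2 fold change of 0.07 and a 95% interval of -0.09 to 0.23 (edgeR adjusted p = 0.454). In TPM, SRXN1 was slightly lower in SS (92.2 and 81.4 TPM) than in control, so the sign of this small difference depended on the scale. In bulk RNA, more transcripts per cell and more cells that carry the transcript cannot be told apart.

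SRXN1 was the only one of the 10 genes called between SS+NAC and control, and it was higher. Of all tested genes 2.01% were called in this comparison, 1.36% as higher and 0.657% as lower, and 1.99% were called with an offset for transcript length, under which SRXN1 was again the only one of the 10 (log2 fold change 1.29, edgeR adjusted p = 2.90e-06). The number of called genes, 282, moved to 98 without control replicate 1, 99 without control replicate 2 and 1086 without SS+NAC replicate 1, whereas SRXN1 was called with each library left out (log2 fold change 1.28 to 1.34). The log2 fold changes of the other 9 genes lay between -0.16 for PRDX3 and 0.06 for PRDX5, and the interval of each contained 0. The sulfiredoxin transcript was also more abundant relative to those of the peroxiredoxins it repairs. The ratio of SRXN1 to the sum of PRDX1, PRDX2, PRDX3 and PRDX4, in TPM, was 0.0711 and 0.0735 in control, 0.0577 and 0.0520 in SS, and 0.175 and 0.190 in SS+NAC. The peroxiredoxin transcripts are shorter than that of SRXN1, and with the length offset the log2 fold changes between SS and control were 0.04 for SRXN1 and 0.07, 0.20, -0.09 and -0.12 for PRDX1 to PRDX4, none of them called.

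In GENCODE release 29 SRXN1 lies on the minus strand of chromosome 20 of GRCh38, from 646615 to 653370, with 2 annotated exons. It shares 2292 exonic bases on the same strand with the read-through gene AL121758.1, and 84.7% of its sequence windows of 50 bases, the read length, also occur there. The read-through gene was not analysed here, and the counts of SRXN1 may include its reads. The bases upstream of SRXN1 are shown because SRXN1 was the only one of the 10 genes called between SS+NAC and control. In the RefSeq promoter table (GRCh38.p14), the part before the first exon, chr20:653371-653450 on the minus strand, reads 5′ to 3′ as follows.
SRXN1: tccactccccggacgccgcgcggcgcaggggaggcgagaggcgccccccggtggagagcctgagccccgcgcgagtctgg
The core letters of antioxidant response elements, TGACNNNGC and TGAGNNNGC on either strand, were searched in windows of 250 bases before to 50 bases after each RefSeq start. They occurred in 13.3% and 18.3% of 35116 promoter windows, and neither occurred in the window of SRXN1, which says only that these letters are absent from these 300 bases.

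NRF2 is the transcription factor that responds to oxidants and electrophiles, and SRXN1 and TXNRD1 are among its known targets. TXNRD1, the cytosolic reductase that reduces TXN, had 711 and 702 CPM in control, 669 and 681 CPM in SS, and 1553 and 1666 CPM in SS+NAC. Both SS+NAC libraries were far above the other 4, and both SS libraries lay just below control. The log2 fold change of TXNRD1 was 1.19 ± 0.0787 between SS+NAC and control (edgeR adjusted p = 1.64e-05) and -0.07 between SS and control (edgeR adjusted p = 0.536). The ratio of TXNRD1 to TXN, in TPM, was 0.674 and 0.633 in control, 0.454 and 0.401 in SS, and 1.45 and 1.53 in SS+NAC. Its lower values in SS compare a long with a short transcript, and with the length offset the log2 fold changes between SS and control were 0.11 for TXNRD1 and 0.10 for TXN. TXNRD2, the mitochondrial reductase, was instead higher in SS than in control (log2 fold change 0.47, edgeR adjusted p = 0.00696), but not called with the length offset described below (0.34, edgeR adjusted p = 0.0720). It was higher in SS than in SS+NAC (0.53, edgeR adjusted p = 0.00359; 0.41 with the length offset, edgeR adjusted p = 0.0258) and was not called between SS+NAC and control (-0.06), and TXNRD3 was called in none of the 3 comparisons.

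Of 11 genes of NRF2 and its targets, a list that includes TXNRD1, 8 were higher in SS+NAC than in control, against 1.36% of all tested genes, with the lowest log2 fold change of the 11 at 0.13, and the median log2 fold change was 0.75, against -0.0024 over all tested genes. GCLM, the modifier subunit of the enzyme that makes the glutathione precursor, had a log2 fold change of 0.91 (edgeR adjusted p = 0.000299), and glutathione reductase (GSR), from the list of other peroxide and superoxide enzymes, had 0.74 (edgeR adjusted p = 0.000335). SESN2, a sestrin that takes part in the defence against peroxides, stood at 27.5 and 30.6 CPM in control, 30.9 and 31.2 CPM in SS, and 91.3 and 85.2 CPM in SS+NAC (log2 fold change 1.60, edgeR adjusted p = 2.36e-06), and SESN1 and SESN3 were not called. GCLM, GSR and SESN2, like SRXN1, were not called between SS and control. Other targets also differed between SS and control. NQO1 was higher in SS (log2 fold change 0.53, and 0.47 with the length offset) and in SS+NAC (0.51), and OSGIN1 by 0.78 (0.59 with the length offset) and 1.90. HMOX1 was higher in SS by 0.43, but not called with the length offset (0.15, edgeR adjusted p = 0.359), and in SS+NAC by 0.85. SLC7A11, the cystine transporter, was lower in SS (-0.58, edgeR adjusted p = 0.00332; -0.04 with the length offset) and higher in SS+NAC (2.13). The transcripts of NRF2 itself (NFE2L2) and of its inhibitor KEAP1 were called in neither SS nor SS+NAC against control, while NFE2L2 was lower in SS than in SS+NAC (-0.37, edgeR adjusted p = 0.00692; -0.35 with the length offset, edgeR adjusted p = 0.0225).

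By the smallest root mean square difference of centred log2 CPM over the 6 libraries, the genes most like SRXN1 among 12666 compared were TXNRD1 (0.0685), TRIM16 (0.0903) and TSC22D3 (0.12). TRIM16, which encodes a tripartite motif protein, had 25.1 and 26.9 CPM in control, 31.2 and 28.9 CPM in SS, and 61.2 and 75.4 CPM in SS+NAC.

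**Figure D2:**
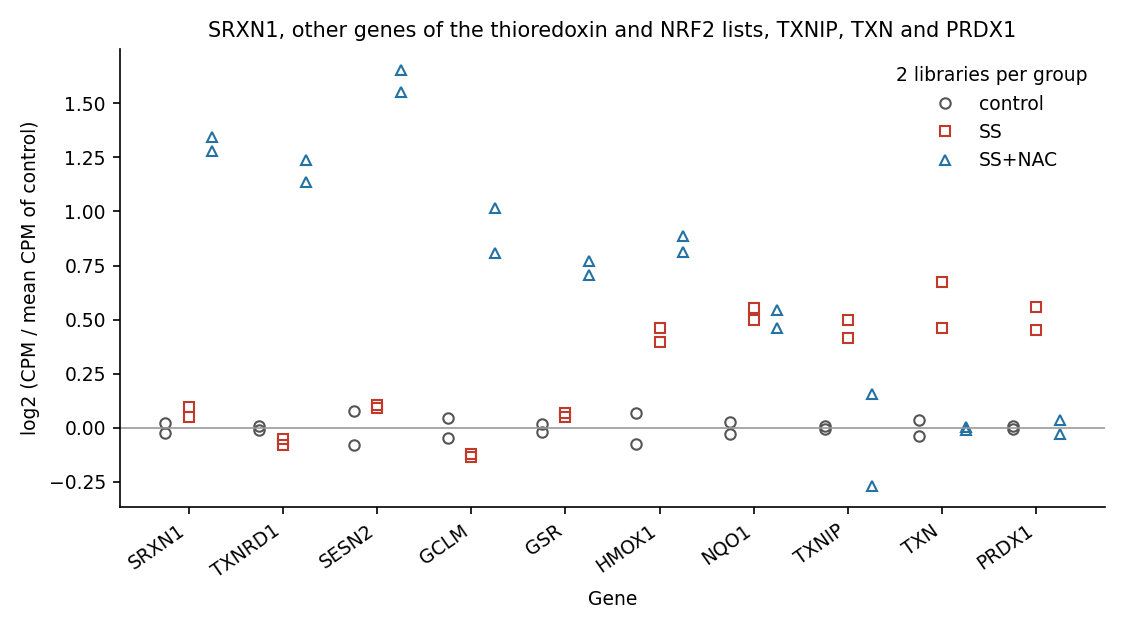
CPM of 10 genes in each of the 6 libraries as the log2 ratio to the mean of the 2 control libraries, with circles for control, squares for SS and triangles for SS+NAC. SRXN1, TXNRD1, SESN2, GCLM and GSR lie near 0 in SS and between 0.71 and 1.65 in SS+NAC, whereas TXNIP, TXN and PRDX1 lie between 0.41 and 0.67 in SS.

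Of the thioredoxins and peroxiredoxins, 7 of 8 were called higher in SS than in control, against 18.6% of all tested genes and 69.5% of those in the shortest eighth by length, but with the length offset edgeR called 0 of the 8 (2 at an unadjusted p under 0.05, and 7 called by DESeq2 without the offset). TXN had 224 and 235 CPM in control, 316 and 366 CPM in SS, and 228 and 230.4 CPM in SS+NAC. PRDX1, a cytosolic peroxiredoxin, had 419 and 416 CPM in control, 571 and 615 CPM in SS, and 428 and 409 CPM in SS+NAC. PRDX2, its close relative, had 127 and 138 CPM in control, 196 and 214 CPM in SS, and 140.0 and 130.5 CPM in SS+NAC. In each of these 3 genes both SS libraries were above the other 4, and control and SS+NAC overlapped. In TXN2, PRDX3, PRDX4 and PRDX6 both SS+NAC libraries were instead below control, though none of these genes was called in that comparison. The share of all genes whose groups separate in this way was not counted. The log2 fold change between SS and control was 0.57 ± 0.0854 for TXN (edgeR adjusted p = 0.000725), 0.51 ± 0.0767 for PRDX1 (edgeR adjusted p = 0.000763) and 0.63 ± 0.0813 for PRDX2 (edgeR adjusted p = 0.000389). Between SS and SS+NAC the same genes had log2 fold changes of 0.57, 0.50 and 0.60, all 3 called.

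Between SS and control, 8 of the 10 genes were called, all of them higher in SS, against 40.0% of all tested genes called, 18.6% higher and 21.4% lower. With the length offset 1 of the 10 was called, and among all genes of the shortest eighth, which holds 6 of the 10, 69.5% were called higher without it. The exceptions were SRXN1 and PRDX3, the mitochondrial peroxiredoxin, with a log2 fold change of 0.19 (edgeR adjusted p = 0.0654). PRDX3 was called in the fits without SS+NAC replicate 1 (edgeR adjusted p = 0.0438) and without SS+NAC replicate 2 (edgeR adjusted p = 0.0457), and also with at least 10 counts in every library (edgeR adjusted p = 0.0308) or the compared libraries only (edgeR adjusted p = 0.0385). PRDX4 (0.34, edgeR adjusted p = 0.00951) was not called without control replicate 2 (edgeR adjusted p = 0.0655) or SS replicate 2 (edgeR adjusted p = 0.0987). The remaining called genes were TXN2 (0.39), TXNIP (0.46), PRDX5, an atypical peroxiredoxin (0.54), and PRDX6, the peroxiredoxin with a single catalytic cysteine (0.46). Between SS and SS+NAC all 10 genes were called, 9 higher in SS and SRXN1 lower, against 42.7% of all tested genes, 19.6% higher and 23.1% lower. In this comparison 67.85% of all genes of the shortest eighth and 41.1% of the second eighth were called higher. With the length offset 2 of the 10 were called higher and 1 lower. The number of called genes between SS and control, 5609, fell to 3118 without control replicate 1, 3628 without control replicate 2 and 3164 without SS replicate 2, and that between SS and SS+NAC, 5985, to 3250 without SS replicate 2, while 6 to 9 and 10 of the 10 genes were called in these 2 comparisons with each library left out.

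**Figure D3:**
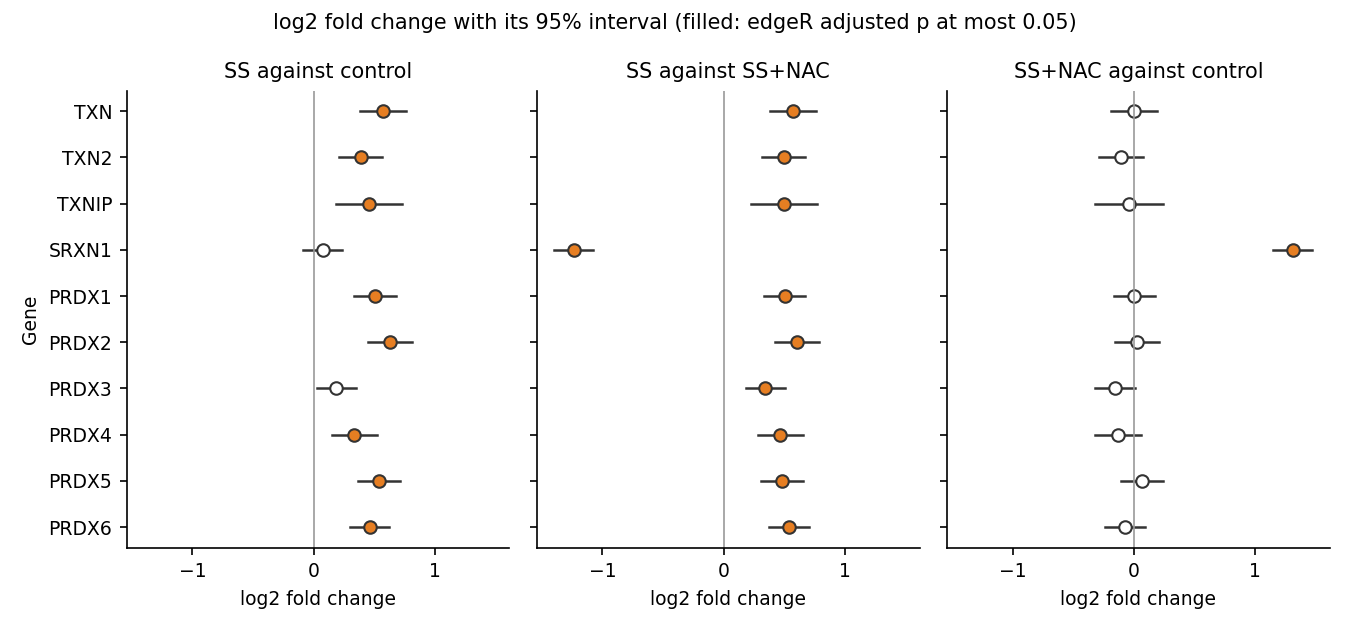
log2 fold change of each gene in the 3 comparisons, as points with their 95% interval, filled where the edgeR adjusted p was at most 0.05. SRXN1 lies at -1.24 and 1.31 in the comparisons with SS+NAC, and the other 9 genes lie between 0.19 and 0.63 in SS against control and between -0.16 and 0.06 in SS+NAC against control.

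The share of called genes depended on transcript length, and most of the 10 genes are short. Effective length, the number of positions at which a read can start, was derived from the deposited counts and FPKM values. It was 780.5 bases for PRDX5, 847 for TXN, 902 for PRDX4, 999.6 for PRDX1, 1021 for PRDX2, 1336 for TXN2, 1621 for PRDX3 and 1665 for PRDX6, whereas it was 2712 for SRXN1 and 2944 for TXNIP. TXN, TXN2, PRDX1, PRDX2, PRDX4 and PRDX5 fall in the shortest eighth of 1742 tested genes (183 to 1405 bases), where 69.5% were called higher in SS against control and the median log2 fold change was 0.46. Among the longest eighth 1.67% were called higher, with a median of -0.47. In the fourth eighth (2472 to 3042 bases), which holds SRXN1 and TXNIP, 9.47% were called higher, with a median of 0.03. Between SS+NAC and control the medians of all 8 lay between -0.02 and 0.02. In SS against control PRDX1, PRDX4, PRDX5, TXN2, PRDX3 and SRXN1 lay within the middle 50% of the genes of their eighth. TXN and PRDX2 lay above the upper quartile of the shortest eighth (0.57), PRDX6 above that of the second (0.39) and TXNIP above that of the fourth (0.19). Why the fold changes followed length was not tested.

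**Figure D4:**
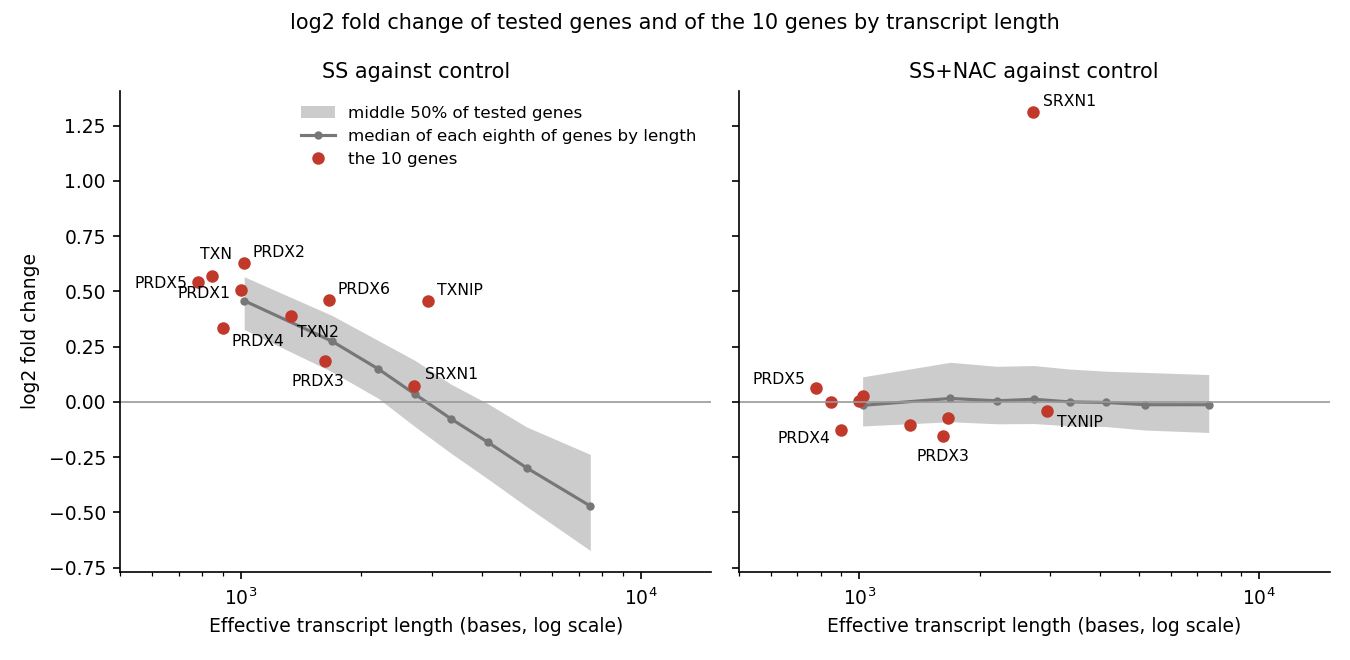
log2 fold change against effective transcript length on a log axis, for SS against control and for SS+NAC against control, with the median of each eighth of the tested genes by length (line), their middle 50% (band) and the 10 genes (red points). In SS against control the medians run from 0.46 in the shortest to -0.47 in the longest eighth and TXNIP lies above the band, and in SS+NAC against control SRXN1 alone stands far outside it.

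An offset that removes the trend with length in each library, estimated from all tested genes, was added to the same edgeR fit. With it 9.33% of all genes were called between SS and control, and of the 10 genes only TXNIP was (log2 fold change 0.47, edgeR adjusted p = 0.0428). The log2 fold change fell to 0.10 for TXN (edgeR adjusted p = 0.409), 0.07 for PRDX1 (edgeR adjusted p = 0.491), 0.04 for TXN2 (edgeR adjusted p = 0.741) and 0.05 for PRDX5 (edgeR adjusted p = 0.706). PRDX2 and PRDX6 both had 0.20, with edgeR adjusted p of 0.0935 and 0.0848, and both were called higher when either SS+NAC library was left out (edgeR adjusted p 0.0292 to 0.0416). The sign turned for PRDX3 (-0.09) and PRDX4 (-0.12), neither of them called. Between SS and SS+NAC 14.4% of all genes were called with the offset, and of the 10 genes 3 were, SRXN1 (-1.25, edgeR adjusted p = 1.53e-05), TXNIP (0.52, edgeR adjusted p = 0.0203) and PRDX6 (0.29, edgeR adjusted p = 0.0160). PRDX6 was then not called without SS replicate 1 (edgeR adjusted p = 0.0786) or SS replicate 2 (edgeR adjusted p = 0.128), and TXNIP was also not called without SS replicate 1 (edgeR adjusted p = 0.102) or SS replicate 2 (edgeR adjusted p = 0.108). PRDX4 and PRDX5 changed sign in this comparison, to -0.0040 and -0.03.

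**Figure D5:**
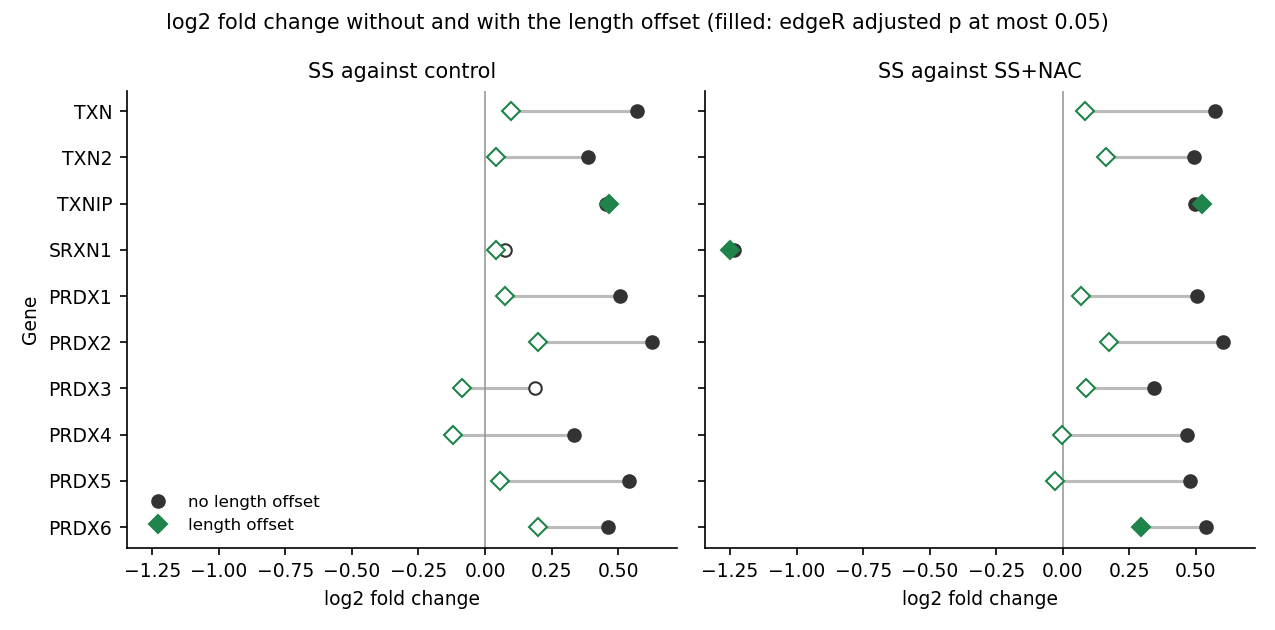
log2 fold change of each gene without (circles) and with (diamonds) the length offset in SS against control and in SS against SS+NAC, filled where the edgeR adjusted p was at most 0.05. The offset moves TXN from 0.57 to 0.10 and PRDX1 from 0.51 to 0.07 in SS against control, where TXNIP stays at 0.47, and SRXN1 stays at -1.25 in SS against SS+NAC.

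TXNIP opposes thioredoxin by holding it inactive, and the TXNIP transcript was higher in SS both with and without the length offset. It had 21.2 and 21.4 CPM in control, 30.0 and 28.4 CPM in SS, and 17.7 and 23.7 CPM in SS+NAC. In CPM both SS libraries were above the other 4, and the SS+NAC libraries lay on either side of control. In TPM both SS libraries were above control, but SS (17.5 and 15.3 TPM) and SS+NAC (11.7 and 17.0 TPM) overlapped. The log2 fold change between SS and control was 0.46 ± 0.124 (95% interval 0.18 to 0.73, edgeR adjusted p = 0.0144). It was not called without control replicate 1 (0.45, edgeR adjusted p = 0.0675), SS replicate 1 (0.41, edgeR adjusted p = 0.0750) or SS replicate 2 (0.49, edgeR adjusted p = 0.0510), and with the length offset it was called only in the 2 of 6 fits that left out an SS+NAC library (edgeR adjusted p up to 0.217 in the others). Between SS and SS+NAC it was 0.50 ± 0.123 (edgeR adjusted p = 0.00831), with values of 0.30 to 0.72 when a library was left out, all called.

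TXNIP is known as a target of the glucose-responsive factors MondoA and ChREBP, so its relatives and regulators were examined beside it. MondoA (MLXIP) was lower in SS than in control (-0.55, edgeR adjusted p = 0.000838; -0.06 with the length offset) and its partner MLX was higher (0.22, edgeR adjusted p = 0.0262; 0.13 with the length offset, not called). ARRDC4, the arrestin-domain relative that MondoA also drives, was at 0.745 CPM or less in each library and was not called. Of the 9 relatives and regulators of TXNIP, 2 were higher and 2 lower in SS than in control, near the 40.0% of all genes called, with ARRDC1 (0.37) as the largest rise and ITCH, the ubiquitin ligase that marks TXNIP for degradation, at -0.46. With the length offset edgeR called 0 of the 9, and 0 had an unadjusted p under 0.05, while DESeq2 without the offset called 4. Between SS and SS+NAC 2 of the 9 were higher and 4 lower, against 42.7% of all genes called. With the length offset 0 were called (2 at an unadjusted p under 0.05). The lower genes included ARRDC3 (-0.60, edgeR adjusted p = 0.0154) and ChREBP (MLXIPL, -1.97, edgeR adjusted p = 0.0239). MLXIPL was at 0.582 CPM or less in each library. The genes most like TXNIP over the 6 libraries were SMARCD3 (root mean square difference 0.059), CDKN1C (0.0687) and NDUFB5 (0.0729), and those most like TXN and PRDX1 had effective lengths of 727.8 to 1420 bases (C12orf57, MZT2A and CKB for TXN, and MPC1, BUD31 and MRPL28 for PRDX1).

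TXNIP lies on the minus strand of chromosome 1, from 145992435 to 145996600 in GENCODE release 29 on GRCh38. Its upstream sequence is shown because it holds a paired carbohydrate response element. CACGAG, any 5 bases and CACGAG, searched on both strands, occurred in 2 of the 35116 RefSeq promoter windows (0.006%), and one of them is that of TXNIP, where it begins 88 bases before the start. The searched letters are those of the TXNIP element itself, and other paired forms were not searched. The match and the low share therefore do not show how rare such elements are. The sequence of chr1:145996601-145996829 on the minus strand (RefSeq GRCh38.p14) has in capitals this pair and, further upstream, a match to TGAGNNNGC on the opposite strand that begins 152 bases before the start. The upstream part of TXN at chr9:110256641-110256757 on the minus strand is given beside it, and its window held none of the searched letters. TGAGNNNGC also occurred in the windows of PRDX3 (48 bases before the start) and PRDX2 (5 bases after it).
TXNIP: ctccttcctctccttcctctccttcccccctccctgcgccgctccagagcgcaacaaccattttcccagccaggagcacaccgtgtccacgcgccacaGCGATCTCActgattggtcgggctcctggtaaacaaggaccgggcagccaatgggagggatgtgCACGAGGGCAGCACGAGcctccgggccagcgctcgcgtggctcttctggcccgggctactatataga
TXN: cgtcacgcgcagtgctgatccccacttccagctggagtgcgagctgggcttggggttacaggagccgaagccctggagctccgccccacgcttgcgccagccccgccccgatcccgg
A single CACGTG, the E-box, occurred in 7.26% of the windows, among them those of PRDX3 (157 bases before the start) and PRDX4 (83 bases before the start). Windows were held for 7 of the 10 genes, and none was used for PRDX1, PRDX6 and TXN2.

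Of 20 tested relatives with a thioredoxin fold, 9 were higher and 4 lower in SS than in control, against 18.6% and 21.4% of all genes. With the length offset 1 was called higher and 1 lower, near the 9.33% of all genes called with it. These were TXNDC17, a small cytosolic relative of thioredoxin (0.54, and 0.37 with the offset, edgeR adjusted p = 0.0181), and TMX3, a thioredoxin-fold enzyme of the endoplasmic reticulum membrane (-0.78, and -0.54 with the offset, edgeR adjusted p = 0.00988). TMX3 had 61.0 and 54.7 CPM in control, 36.5 and 30.6 CPM in SS, and 51.4 and 60.3 CPM in SS+NAC, so that both SS libraries were below the other 4. Without the offset the glutaredoxin GLRX2 had the largest rise (0.58), and TMX1 (-0.26) the second largest fall among the called relatives. Among 8 clients of thioredoxin, 3 were higher and 2 lower in SS, including the methionine sulfoxide reductases MSRB2 (0.54), MSRA (0.35) and MSRB3 (-0.34) and the ribonucleotide reductase subunit RRM2B (-0.51), and with the offset edgeR called 0 of the 8 (1 at an unadjusted p under 0.05). Between SS+NAC and control edgeR and DESeq2 each called 0 of the 20 relatives and 0 of the 8 clients. This is near the 2.01% of all tested genes that edgeR called. In edgeR 2 of the relatives and 1 of the clients had an unadjusted p under 0.05.

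Of 11 tested enzymes that handle peroxide, superoxide or glutathione by other routes, 5 were called in SS against control, near the 40.0% of all genes called. All 5 were higher, against 18.6% of all genes called higher, with GSTP1 (0.69) and the selenoenzyme GPX4 (0.60) first. With the offset edgeR called 0 of the 11 (2 at an unadjusted p under 0.05). Catalase (CAT), which breaks down hydrogen peroxide in peroxisomes without thioredoxin, had 47.1 and 46.6 CPM in control, 53.4 and 53.3 CPM in SS, and 45.7 and 48.3 CPM in SS+NAC, and it was not called (edgeR adjusted p = 0.0623 between SS and control). Of the 3 sestrins edgeR and DESeq2 called 0 between SS and control, with 0 at an unadjusted p under 0.05.

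PRDX1 and PRDX2 overlap genes on the opposite strand, MMACHC by 379 exonic bases and AC018761.2 by 296. Whether counting used the strand was not stated, so reads of these overlaps cannot be told apart. Fewer than 4% of the 50-base windows of each gene other than SRXN1 occurred in another gene, with the most for TXN (3.34%, pseudogenes of TXN). No 50-base window was shared between any pair of the 10 genes.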

How the data were processed

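KHM-5M cells were sequenced as single-end reads of 50 bases in 3 groups of 2 libraries. SOAPnuke was used by the authors to filter reads, HISAT2 (2.0.4) to map them and RSEM (1.2.12) to estimate levels, and the submitters' processing notes also name Bowtie2 2.2.5. The expected counts per gene in the deposited table were made by the authors with RSEM. The FPKM values in the deposited table were computed by the authors from counts, length and depth. TPM values, also deposited, were scaled by the authors to an equal total per library. The build was not given in the sources used here, and GENCODE positions were used. The table places TXNIP, PRDX1 and PRDX2 on the strand opposite to GENCODE, with spans 18.0, 3.59 and 4.95 times as wide, and its spans of TXN2 and PRDX6 are also wider. Whether counting used these spans is unclear. No use was made of 9 columns that hold group means. A further 9 columns hold the authors' own comparisons (log2 fold changes, p-values and q-values, from DESeq2 by their names) and were not used.

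Expected counts were rounded, filtered with filterByExpr, scaled by TMM and tested with the quasi-likelihood test of edgeR 4.0.16 (R 4.3.3) over all 6 libraries with Benjamini-Hochberg adjustment. The filter left 14005 of 17687 genes. The fit had 3 residual degrees of freedom and a biological coefficient of variation of 6.74%, and the replicates differed by more than counting noise (chi-square per degree of freedom 3.16 in control, 7.45 in SS and 12.3 in SS+NAC). The length offset came from a lowess curve with a span of 0.3, fitted in each library to each gene's log2 CPM minus its mean against log effective length. The procedure was tested on simulated data. The members and gene lists were chosen with earlier results of these data known. Beside the members, TXNRD1, GSR, CAT, ARRDC4, MLXIP, SESN2, NFE2L2, KEAP1, NQO1, HMOX1 and GCLM were always named, and in each list up to 2 called genes with the largest rise and fall between SS and control. The 3 genes most like TXN, TXNIP, SRXN1 and PRDX1 were sought among genes whose mean CPM was 1 or more. The lists were thioredoxin reductases, thioredoxin-fold relatives, thioredoxin clients, TXNIP relatives and regulators, other peroxide and superoxide enzymes, sestrins, NRF2 and its targets, and markers of thyroid, epithelial, mesenchymal and endothelial cells. Alternatives were DESeq2 1.42.0 size factors and its Wald test, a replicate block, the length offset with and without the block, Bonferroni adjustment, other low-count filters, fits of the 4 compared libraries, FPKM in place of TPM for the order of levels, and leaving out each library. The length offset with each library left out was added after seeing the data. Python 3.11.15 was used for tables (pandas 2.3.3, numpy 2.4.6) and plots (matplotlib 3.10.9).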

Additional observations from a re-analysis of the deposited data

How the results depend on the processing

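The results for SRXN1 held their direction and call under all 15 alternatives, with log2 fold changes of 1.28 to 1.34 between SS+NAC and control and -1.27 to -1.21 between SS and SS+NAC. The order of the 10 genes by level in control was the same in FPKM as in TPM. It could hardly differ, since TPM only scales each library to an equal total, so this is no test of stability. Between SS and control and between SS and SS+NAC, the length offset, with or without the replicate block, and Bonferroni adjustment changed the calls most. Between SS+NAC and control the length offset hardly changed their number (279 genes, against 282), and leaving out a library moved it more. With the length offset 1 of the 10 genes and 1306 genes in all were called between SS and control, and 3 of the 10 and 2010 in all between SS and SS+NAC, with reversed log2 fold changes of -0.085 for PRDX3 and -0.12 for PRDX4 in the first comparison, -0.0040 for PRDX4 and -0.031 for PRDX5 in the second, and 0.015 for TXN between SS+NAC and control. Bonferroni adjustment of the edgeR test left 0 of the 10 genes (9 at an unadjusted p under 0.05, and 8 called by DESeq2) and 220 genes in all between SS and control, 1 of the 10 (SRXN1) and 191 in all between SS and SS+NAC, and 40 between SS+NAC and control. The DESeq2 Wald test called 321 genes between SS+NAC and control, 57.3% of them higher, against 67.4% of 282. Small values between SS+NAC and control also reversed, to -0.014 for PRDX1 with DESeq2 size factors and with the DESeq2 Wald test, and to 0.0069 for TXN with at least 10 counts in every library and 0.0043 with the compared libraries only. The cause of these reversals was not tested. Leaving out each library in turn, where the lone library of a group is assumed to vary like the other groups, gave 3118 to 6579 called genes between SS and control, 3250 to 6339 between SS and SS+NAC, and 98 to 1086 between SS+NAC and control. It moved the log2 fold change between SS+NAC and control over 0, from -0.038 to 0.037 for TXN, -0.27 to 0.15 for TXNIP, -0.032 to 0.035 for PRDX1, -0.033 to 0.089 for PRDX2 and -0.0076 to 0.14 for PRDX5. With the length offset as well, the ranges over 0 were -0.024 to 0.14 for PRDX5 between SS and control, -0.031 to 0.024 for PRDX4 and -0.073 to 0.012 for PRDX5 between SS and SS+NAC, and -0.035 to 0.060 for TXN, -0.29 to 0.14 for TXNIP, -0.0048 to 0.021 for PRDX1 and -0.022 to 0.083 for PRDX2 between SS+NAC and control.

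Replicate numbers were shared between groups as names only, and the differences between replicates correlated by 0.113 for control and SS, -0.105 for control and SS+NAC, and -0.175 for SS and SS+NAC. With the number as a replicate block the called genes were 4857 between SS and control, 5136 between SS and SS+NAC and 211 between SS+NAC and control, and 8, 10 and 1 of the 10 genes were called, as without it. The length offset with replicate block called 1 of the 10 and 843 genes in all between SS and control, and 3 of the 10 and 1343 in all between SS and SS+NAC, with -0.085 for PRDX3, -0.12 for PRDX4 (SS against control), -0.0041 for PRDX4, -0.032 for PRDX5 (SS against SS+NAC) and 0.015 for TXN (SS+NAC against control). TXNIP had the fewest counts of the 10 genes, 381 to 689 per library, and the widest 95% intervals.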

Other observations

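TXNIP was the least even of the 10 genes within SS+NAC, with 427 and 571 expected counts, and 17.7 and 23.7 CPM, in the 2 libraries. ARRDC3, a relative of TXNIP chosen after its values were seen, was uneven in the same group, with 44.7 and 70.5 CPM, as was the mitochondrial superoxide dismutase SOD2 (88.4 and 157 CPM), also chosen after its values were seen. In both genes SS+NAC replicate 2 held the highest value of the 6 libraries. In control, these pairs were 43.2 and 43.2 CPM for ARRDC3 and 70.8 and 64.0 CPM for SOD2.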
